A study of Mus musculus with 6 samples.

Results

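RNA of 48 mitosis and cytokinesis genes was followed across 6 mRNA-sequencing libraries of mouse cells. The 48 genes were named by symbol, without a threshold on their values, out of 30445 genes in the deposited count table. They were chosen with earlier results of these data known. Counts set beside the share of all genes therefore describe the list and are no independent test. All 48 were in the table and all 48 were among the 18613 genes with enough counts to be tested. Induced macrophages (iMac), cells whose label calls them a myeloid-like cell complex (MCC), and mouse embryonic fibroblasts (MEF) had 2 libraries each, and every library carried the genotype label wild type. The series title names c-Myc as the factor that turns fibroblasts into macrophages. The sources used here do not state how iMac and MCC were made, their time in culture, the age of the embryos, or whether the 2 libraries of a group came from separate cultures. The p-values below therefore measure only the spread between these libraries, which may be technical.

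Mitosis begins when cyclin B activates the kinase Cdk1, after which chromosomes condense and attach through their kinetochores to the spindle. The spindle checkpoint holds the cell until every kinetochore is attached. The anaphase-promoting complex then marks cyclin B for destruction, and a contractile ring separates the daughter cells. The genes of this machinery are transcribed late in the cell cycle and are low in resting cells. Their promoters often carry a cell cycle homology region, bound by the MuvB complex, together with CCAAT boxes bound by NF-Y, and B-Myb (Mybl2) and Foxm1 join MuvB to activate them. In bulk samples such as these, fewer dividing cells and less RNA per dividing cell cannot be told apart.

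Promoter sequences are shown because many members share these short elements. Any relation of the elements to the levels was not tested. Shown are the 110 bases before the RefSeq start of 4 members and of Anln, chosen by name as examples. All of them stood lower in iMac than in MCC, and Anln also stood lowest relative to MEF. The stretches read 5′ to 3′ on the gene's strand as follows. Capitals mark TTTGAA (the core of the cell cycle homology region), CCAAT and CACGTG (the E-box that Myc can bind) on either strand, so that TTCAAA and ATTGG are the reverse-strand forms of the first and second of these.
Cdk1: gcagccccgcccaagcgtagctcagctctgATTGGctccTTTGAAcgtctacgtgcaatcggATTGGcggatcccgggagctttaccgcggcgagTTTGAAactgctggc
Top2a: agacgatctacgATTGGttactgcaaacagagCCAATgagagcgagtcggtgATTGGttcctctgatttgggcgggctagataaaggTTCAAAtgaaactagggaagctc
Cdc20: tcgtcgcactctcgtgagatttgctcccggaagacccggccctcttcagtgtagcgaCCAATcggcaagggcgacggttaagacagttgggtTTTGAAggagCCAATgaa
Kif11: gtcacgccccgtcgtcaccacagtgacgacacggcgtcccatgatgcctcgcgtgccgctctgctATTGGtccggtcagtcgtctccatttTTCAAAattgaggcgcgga
Anln: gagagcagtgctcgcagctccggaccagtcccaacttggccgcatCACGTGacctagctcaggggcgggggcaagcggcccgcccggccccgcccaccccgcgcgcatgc
In GRCm38.p6 these stretches lie at chr10:69352913-69353022 for Cdk1, chr11:99024190-99024299 for Top2a, chr4:118437344-118437453 for Cdc20, chr19:37376272-37376381 for Kif11 and chr9:22389207-22389316 for Anln. Kif11 is on the plus strand and the other four genes are on the minus strand. The Cdk1, Top2a, Cdc20 and Kif11 stretches each held a core element and at least 1 CCAAT box, whereas the Anln stretch held an E-box and neither of the others. The core elements of Anln lay at positions 22 and 29 after its start, outside the stretch shown. Windows of the members most often held a core in the 25 bases after the start (31.0%).

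RefSeq promoter windows, 250 bases before to 50 bases after the start, were found for 40 of the 48 genes, in 42 windows. Ccna2, Foxm1, Tpx2, Kif20a, Aurkb, Cdc25c, Incenp and Spc24 had no entry. TTTGAA was present on either strand in 29 of the 40 genes (72.5%), against 20.2% of all genes with a window. Within 50 bases of the start it was present in 65.0% of the members' genes, against 5.72% of all genes. CCAAT was present in 72.5% of the members' genes, against 41.1% of all genes, and 24 members had both elements (60.0%, against 7.97%). CACGTG was present in 2 of the 40, Anln and Ttk (5.0%), against 8.09% of all genes. Matches to TTTGAA and CCAAT overlapped each other in 47 windows of the whole set. The members with a window but no TTTGAA were Ccnb1, Cdc25b, Nek2, Melk, Bub1, Mad2l1, Cenpe, Nuf2, Birc5, Kif18a and Mybl2. A match describes letters in the window and shows neither binding nor a cause.

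**Figure D1:**
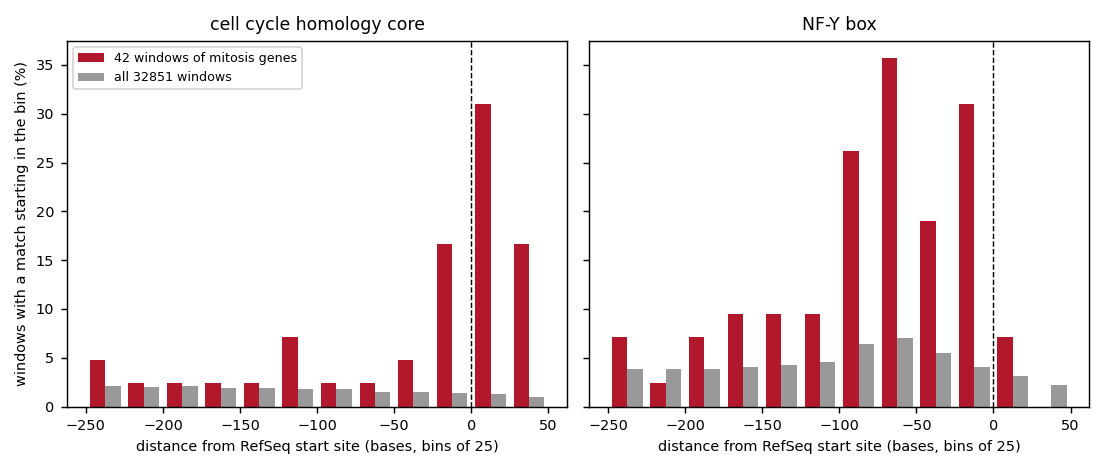
Position of motif matches around RefSeq start sites. The x axis gives distance from the start in bases (bins of 25) and the y axis the percentage of windows with a match that starts in the bin, for 42 windows of the mitosis and cytokinesis genes (red) and all 32851 windows (grey), with the core of the cell cycle homology region on the left and the NF-Y box on the right. The core was most frequent in the members in the 25 bases after the start (31.0%, against 1.31%) and the NF-Y box between 75 and 50 bases before it (35.7%, against 6.99%).

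The libraries held 34389817 to 39174367 counts each, so the members were well covered. Their counts ran from 136 (Cdc25c, iMac library 1) to 17521 (Mki67, MCC library 1). Levels are given as counts per 1000000 (CPM) scaled by edgeR's normalization factors, as a pair for library 1 and library 2 of each group. Libraries of a group differed by more than sampling noise, so none was treated as a copy of another. Exonic bases are shared with another gene in 15 of the 48, which is given below where the share is above 10%. Between the 2 iMac libraries and between the 2 MCC libraries no member differed by more than 1.5-fold. A set of 10 macrophage markers summed to 23570 and 19710 CPM in iMac, 12070 and 11930 CPM in MCC, and 5.53 and 7.73 CPM in MEF. A set of 10 fibroblast markers summed to 15.2 and 11.9 CPM in iMac, 973 and 81.5 CPM in MCC, and 22120 and 9563 CPM in MEF. The labels of iMac and MEF thus matched their defining markers. MCC held macrophage markers in both libraries and fibroblast markers mostly in library 1. The sum of 7 erythroid and megakaryocyte markers was 288 and 265.5 CPM in iMac, 185 and 179 CPM in MCC, and 3.44 and 4.79 CPM in MEF, nearly all of it Pf4. Neutrophil and mast cell markers (8 genes) stayed at or below 14.3 CPM in every library and lymphocyte markers (7 genes) at or below 1.69 CPM. Endothelial and epithelial markers (10 genes) summed to between 8.05 and 10.3 CPM in iMac and MCC, and to 37.4 and 49.7 CPM in MEF. Neural and muscle markers (10 genes) summed to 2.18 and 3.95 CPM in iMac, 35.4 and 9.52 CPM in MCC, and 328 and 232 CPM in MEF.

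Together the 48 genes were highest in MCC. Their summed level was 1946 and 2169 CPM in iMac, 3495 and 3464 CPM in MCC, and 1570 and 2831 CPM in MEF. Both MCC libraries stood above all others, iMac stood between the MEF libraries, and the MEF libraries stood furthest apart of any pair. An MCC library was the highest of the 6 for 33 genes, MEF library 2 for 14 and an iMac library for 1, Cenpa. The matching shares of all genes were not taken for the highest library, so these counts describe the members only. MEF library 1 was the lowest of the 6 for 30 genes and an iMac library for the remaining 18. Of all 18613 genes tested, MEF library 1 was the lowest for 23.3%.

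**Figure D2:**
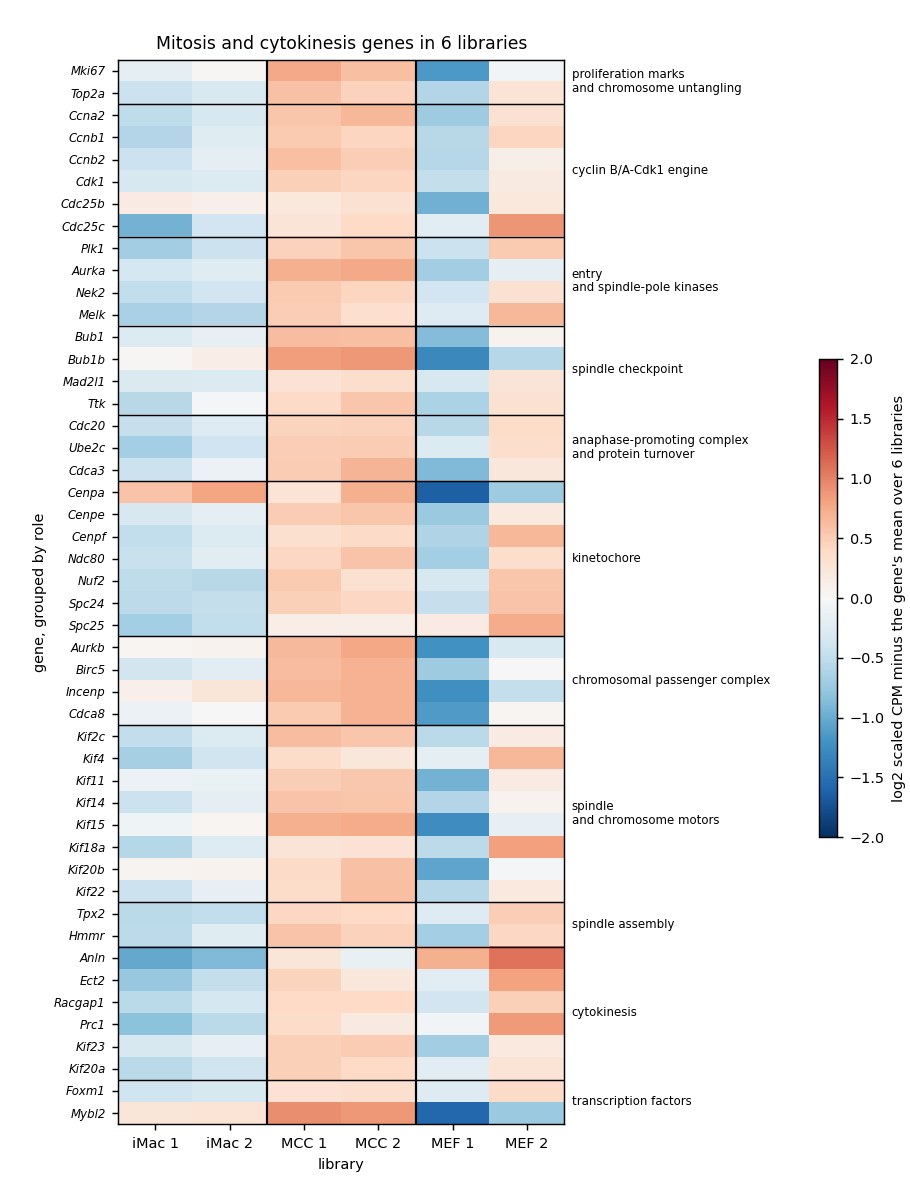
Level of each of the 48 genes in each of the 6 libraries, as log2 CPM relative to the gene's mean over the libraries, with libraries along the x axis and genes, grouped by role, down the y axis. An MCC column is the highest for 33 genes, a count for which the share of all genes was not taken. Both iMac columns lie below both MCC columns for 47 (27.9% of all genes tested). MEF library 1 is the lowest column for 30 genes (23.3% of all genes tested) and an iMac column for 18. MEF library 1 lies below MEF library 2 for all 48 genes.

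The 2 MEF libraries have to be looked at apart. MEF library 2 was above MEF library 1 for 48 of 48 members, where 9140 of 18130 genes with counts in both libraries were. It was above by more than 1.5-fold for 43, where 17.0% of all genes with counts in both libraries were, and by more than 2-fold for 15, where 8.58% of all genes were. The ratio of library 2 to library 1 ran between 1.30 for Anln and 2.53 for Kif18a, which encodes a kinesin that shortens kinetochore microtubules. The summed fibroblast markers, mostly collagen RNA, ran the other way, at 9563 CPM in library 2 and 22120 CPM in library 1. Of the 10 markers, 9 were lower in library 2, some by little, and Pdgfra was higher, at 216 CPM in library 2 and 173 CPM in library 1. Their part in the members' difference was not tested. With 1 library on each side this difference has no replicate check.

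Set against MEF library 1, the mean iMac level had a median ratio of 1.18 over the members, from 0.317 (Anln) to 4.96 (Cenpa), and against MEF library 2 a median ratio of 0.657, from 0.245 (Anln) to 2.63 (Cenpa). The mean MCC level had a median ratio of 2.15 to MEF library 1, from 0.639 (Anln) to 5.55 (Mybl2), and of 1.13 to MEF library 2, from 0.493 (Anln) to 3.13 (Mybl2). Both iMac libraries lay between the MEF libraries for 22 members and both MCC libraries for 12. For those members the direction depended on which MEF library was taken. The share of all genes lying between was not taken. Overlap of any kind with the MEF libraries was seen in iMac for 28 members and 3231 of 18613 genes. In MCC it was seen for 15 members and 3624 genes.

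**Figure D3:**
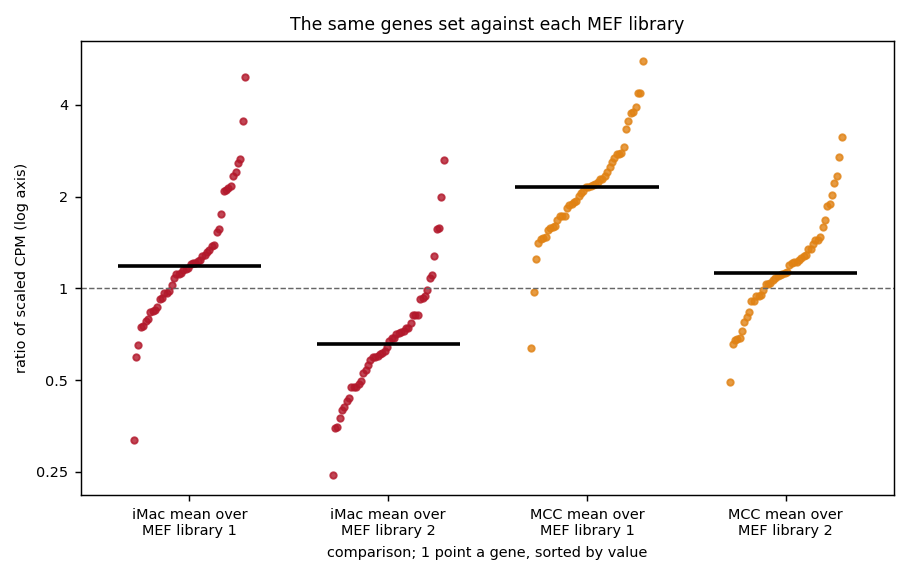
Ratio of scaled CPM of each gene's mean in iMac (red) and in MCC (orange) to MEF library 1 and to MEF library 2 (y axis), on a log axis, with 1 point per gene sorted by value and a bar at the median. The points lie higher against library 1 than against library 2, with medians of 1.18 and 0.657 for iMac and of 2.15 and 1.13 for MCC.

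iMac and MCC were compared to ask how the mitosis genes stand in the induced macrophages and in the myeloid-like complex. Both iMac libraries were below both MCC libraries for 47 of the 48 genes, where 27.9% of all genes tested were, and above both for 0, where 27.7% were. The exception was Cenpa. The median log2 fold change of iMac over MCC was -0.82 over the members, with a range of -1.06 (Plk1) to 0.18 (Cenpa), and -0.02 over all genes. The fit over all 6 libraries took its error from all groups. On simulated counts it called 1% of 2-fold changes in this comparison. In the real counts none of the 48 passed an adjusted p of 0.05 (edgeR quasi-likelihood test, Benjamini-Hochberg over 18613 genes). Of all genes, 4 did (0.0215%, with 0.0107% in each direction). At an unadjusted p under 0.05 stood 30 of the members and 3380 of all genes. DESeq2 called 21 members lower (8.25% of all genes) and limma-voom called 0, for which no share of all genes is given here. Fitted on the 4 iMac and MCC libraries only (the 2-group fit), edgeR called 42 of the 48 lower, where 4.24% of 15859 genes were, and 0 higher, where 4.36% were. Cdc25b, Cdc25c, Ttk, Cenpa, Kif18a and Kif20b missed the threshold in that fit. Values of the 2-group fit given for single members below carry the limit that none was called over all 6 libraries. With 1 library left out at a time, the log2 fold change of Anln in iMac over MCC ran from -1.33 to -0.83.

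**Figure D4:**
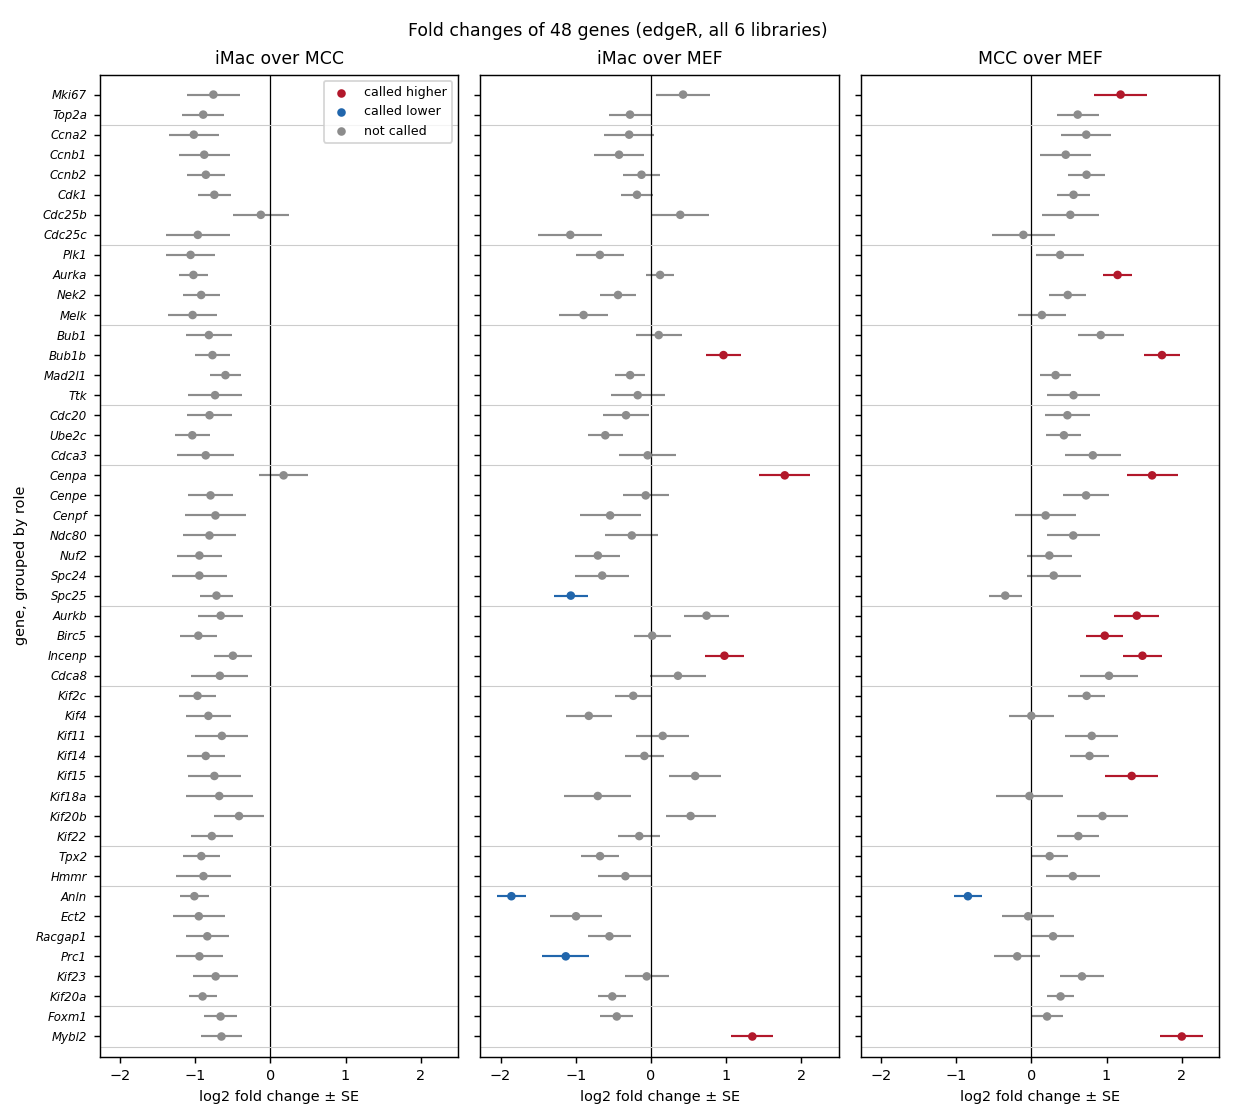
Log2 fold change of each of the 48 genes with its standard error (x axis), for iMac over MCC, iMac over MEF and MCC over MEF, with genes grouped by role down the y axis and calls of the edgeR fit over all 6 libraries in color. All genes except Cenpa lie below 0 in iMac over MCC, and the called genes in the MEF comparisons are few, with Anln the lowest.

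Few members were called between iMac and MEF. In the 6-library edgeR fit, Bub1b, Cenpa, Incenp and Mybl2 were called higher, 4 of 48 where 25.1% of all genes were, and Anln, Prc1 and Spc25 were called lower, 3 of 48 where 32.4% of all genes were. The median log2 fold change was -0.27, from -1.86 to 1.78, against -0.06 over all genes. Both iMac libraries were above both MEF libraries for 7 members (39.1% of all genes) and below both for 13 (43.5%). With the median-ratio size factors of DESeq2 in the same fit the split was 4 higher (23.1% of all genes) and 7 lower (33.6%), and with unscaled library totals it was 2 higher (21.1%) and 3 lower (33.6%). The counts also turned on single libraries. Without MEF library 2 there were 16 higher (21.4% of all genes) and 2 lower (24.8%), with a median of 0.22. Without MEF library 1 there were 5 higher (21.2% of all genes) and 30 lower (24.6%), with a median of -0.60. Without iMac library 1 there was 1 member called higher (12.5% of all genes) and 1 lower (13.4%), and without iMac library 2 there were 0 higher (12.6%) and 1 lower (13.4%). Calls over all genes thus also dropped without an iMac library.

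MCC against MEF gave 9 members called higher (23.4% of all genes) and 1 called lower (29.6% of all genes). The 9 were Mki67, Aurka, Bub1b, Cenpa, Aurkb, Birc5, Incenp, Kif15 and Mybl2, and the 1 was Anln. The median log2 fold change was 0.56, from -0.84 (Anln) to 2.001 (Mybl2), against -0.05 over all genes. Both MCC libraries were above both MEF libraries for 31 members (38.2% of all genes) and below both for 2, Anln and Spc25 (42.4%). Without MEF library 2 there were 41 called higher, where 21.6% of all genes were, and 0 lower (18.2%), with a median of 1.16. Without MEF library 1 there were 13 higher, where 19.3% of all genes were, and 2 lower (19.7%), with a median of 0.18. With 1 library left out at a time, the log2 fold change of Anln in MCC over MEF ran from -1.04 to -0.54. The comparisons of iMac and of MCC with MEF share the MEF libraries and are given side by side only.

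**Figure D5:**
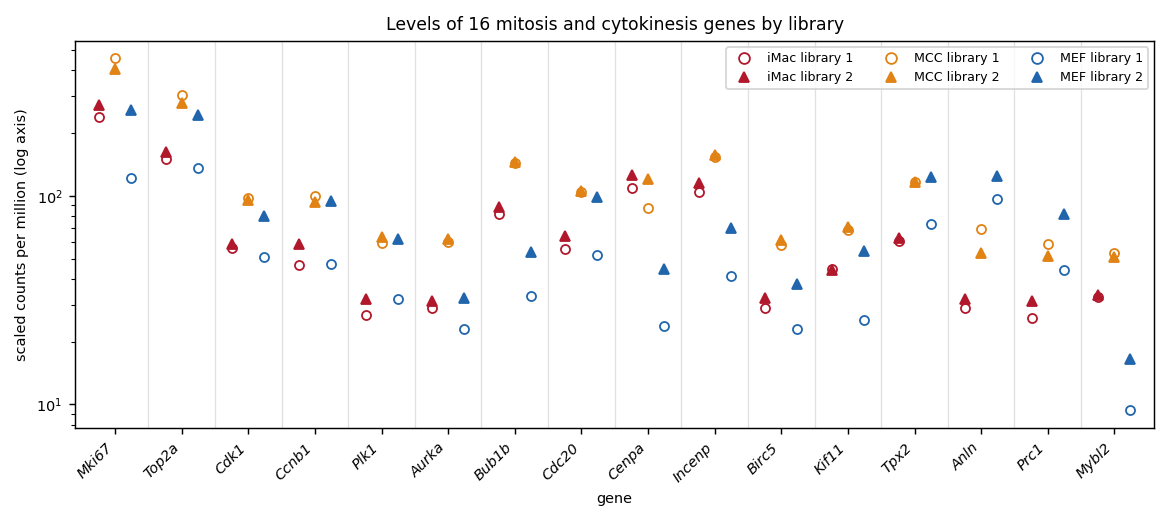
Level in scaled CPM (y axis, log scale) of 16 genes (x axis) in each library, with a circle for library 1 and a triangle for library 2 of iMac (red), MCC (orange) and MEF (blue). Most genes are lower in iMac than in MCC with MEF spread widely, Mybl2 is higher in iMac and MCC than in MEF, and Anln is lower in both than in MEF.

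Both marks of dividing cells were highest in MCC. Mki67, which encodes the Ki-67 protein that coats mitotic chromosomes, stood at 237 and 273 CPM in iMac, 456 and 407 CPM in MCC and 122 and 257 CPM in MEF. Top2a encodes the topoisomerase that untangles sister chromatids, and it stood at 150.2 and 163 CPM in iMac, 303 and 279 CPM in MCC and 135 and 244 CPM in MEF. Both MCC libraries were the highest for each gene, and for each gene the iMac libraries lay within or near the MEF pair. The log2 fold change of Mki67 in MCC over MEF was 1.19 ± 0.36 (SE, adjusted p = 0.0407). That call was lost without MCC library 1 (adjusted p = 0.0897), MCC library 2 (0.0567), iMac library 1 (0.0788) or iMac library 2 (0.0788), with library totals (0.0580), and in the fit on MCC and MEF only (0.0708). In iMac over MCC the log2 fold change over all 6 libraries was -0.76 ± 0.35 (SE, adjusted p = 0.331) for Mki67 and -0.89 ± 0.28 (SE, adjusted p = 0.226) for Top2a. On the iMac and MCC libraries alone it was -0.77 ± 0.10 (SE, adjusted p = 0.0220) for Mki67 and -0.91 ± 0.08 (SE, adjusted p = 0.0125) for Top2a.

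In the cyclin and Cdk1 engine of mitotic entry none of 6 members was called against MEF. Ccnb1, the regulatory subunit cyclin B1, had 46.5 and 58.6 CPM in iMac, 99.7 and 93.8 CPM in MCC and 47.1 and 93.9 CPM in MEF. Cdk1, its catalytic partner, had 56.4 and 58.7 CPM in iMac, 97.9 and 95.02 CPM in MCC and 51.1 and 79.8 CPM in MEF. Both genes were low in iMac and MEF library 1 and highest in MCC, except that cyclin B1 in MEF library 2 lay within the MCC pair. Ccnb2, the second B-type cyclin, had 22.7 and 26.7 CPM in iMac, 46.5 and 43.2 CPM in MCC and 20.6 and 33.3 CPM in MEF. Cdc25c, a phosphatase that removes the inhibitory phosphates of Cdk1, had 4.06 and 6.03 CPM in iMac, 9.34 and 10.4 CPM in MCC and 6.78 and 14.5 CPM in MEF. It was below both MEF libraries in iMac, although 12.7% of its exonic bases are shared with another gene and its counts are uncertain for that reason. Its relative Cdc25b, the phosphatase linked to the first activation of Cdk1, had 32.4 and 31.1 CPM in iMac, 33.5 and 35.8 CPM in MCC and 14.9 and 33.5 CPM in MEF, and only MEF library 1 stood apart. Ccnb1 and Ccnb2 each have a pseudogene by name, and 12.5% of the exonic bases of Ccna2 (cyclin A2) overlap Exosc9, which leaves their counts uncertain too. On the iMac and MCC libraries alone the log2 fold change was -0.76 ± 0.07 (SE, adjusted p = 0.0133) for Cdk1 and -0.89 ± 0.13 (SE, adjusted p = 0.0258) for Ccnb1. It was -1.03 ± 0.09 (SE, adjusted p = 0.0126) for Ccna2, against -0.14 ± 0.09 (SE, adjusted p = 0.349) for Cdc25b. In the edgeR fit over all 6 libraries none of these was called. The adjusted p there was 0.207 for Cdk1, 0.268 for Ccnb1, 0.232 for Ccna2 and 0.897 for Cdc25b.

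The kinases of entry and of the spindle poles had the lowest median in iMac over MCC, -1.03 on the log2 scale for 4 members. Plk1, which drives centrosome maturation and much of mitotic progression, had 26.7 and 32.02 CPM in iMac, 59.3 and 63.3 CPM in MCC and 31.9 and 62.1 CPM in MEF. Aurka, the kinase Aurora A of the spindle poles, had 29.1 and 31.2 CPM in iMac, 60.3 and 62.3 CPM in MCC and 22.9 and 32.5 CPM in MEF. Both MCC libraries were above both MEF libraries for Aurka, and its log2 fold change, 1.15 ± 0.19 (SE, adjusted p = 0.00752), passed under all 14 alternatives. Melk, a kinase of dividing and progenitor cells, had 10.1 and 10.6 CPM in iMac, 22.3 and 20.1 CPM in MCC and 13.2 and 25.3 CPM in MEF, so that both iMac libraries were below both MEF libraries. Nek2, which splits the centrosomes, ran between 17.5 and 35.6 CPM over the 6 libraries. For iMac over MCC, the 2-group fit gave -1.08 ± 0.11 (SE, adjusted p = 0.0153) for Plk1 and -1.04 ± 0.08 (SE, adjusted p = 0.0118) for Aurka.

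Spindle checkpoint genes differed in how they stood against the fibroblasts. Bub1b encodes BubR1, part of the complex that inhibits the anaphase-promoting complex, and it had 81.5 and 88.1 CPM in iMac, 144 and 146 CPM in MCC and 32.99 and 53.8 CPM in MEF. Both iMac and both MCC libraries were above both MEF libraries. The log2 fold change was 0.97 ± 0.24 (SE, adjusted p = 0.0201) in iMac over MEF and 1.74 ± 0.24 (SE, adjusted p = 0.00479) in MCC over MEF. The iMac call was lost without iMac library 1 (adjusted p = 0.0752) or iMac library 2 (0.0950) and with library totals (0.0547), while the MCC call passed under all 14 alternatives. Bub1, the kinase that places the checkpoint on kinetochores, had 29.7 and 32.1 CPM in iMac, 54.7 and 54.3 CPM in MCC and 19.7 and 37.8 CPM in MEF. Mad2l1, the Mad2 protein that is turned into the inhibitor at free kinetochores, had 31.9 and 31.96 CPM in iMac, 47.3 and 49.4 CPM in MCC and 31.04 and 46.3 CPM in MEF. For Bub1 and Mad2l1 the iMac pair lay between the MEF libraries, and neither was called. Ttk, the Mps1 kinase at the top of the checkpoint, ran between 11.7 and 26.6 CPM.

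The 3 genes of protein turnover at anaphase were lower in both iMac than in both MCC libraries, and none was called against MEF. Cdc20, the activator that brings substrates to the anaphase-promoting complex, had 55.8 and 63.9 CPM in iMac, 104 and 106 CPM in MCC and 52.2 and 98.4 CPM in MEF. Ube2c, the ubiquitin-conjugating enzyme of the complex, had 26.99 and 32.8 CPM in iMac, 60.99 and 61.9 CPM in MCC and 35.7 and 55.4 CPM in MEF. Its highest libraries were those of MCC and both iMac libraries lay below both MEF libraries, with the reserve that 22.8% of its exonic bases overlap Tnnc2. Cdca3, an F-box-like protein that promotes loss of the Wee1 kinase, had 19.1 and 23.6 CPM in iMac, 36.4 and 40.9 CPM in MCC and 13.9 and 30.01 CPM in MEF. On iMac and MCC alone, the log2 fold change was -0.82 ± 0.09 (SE, adjusted p = 0.0154) for Cdc20 and -1.05 ± 0.12 (SE, adjusted p = 0.0156) for Ube2c.

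Among 7 kinetochore genes, Cenpa was called higher and Spc25 lower in iMac than in MEF. Cenpa, the histone H3 variant that marks the centromere, had 109 and 126 CPM in iMac, 87.8 and 119.8 CPM in MCC and 23.7 and 44.5 CPM in MEF. It was the 1 member whose iMac and MCC libraries overlapped, and all 4 of those libraries were above both MEF libraries. The log2 fold change was 1.78 ± 0.34 (SE, adjusted p = 0.00965) in iMac over MEF, 1.61 ± 0.34 (SE, adjusted p = 0.0149) in MCC over MEF and 0.18 ± 0.33 (SE, adjusted p = 0.817) in iMac over MCC. The MCC call passed under all 14 alternatives, the iMac call was lost without iMac library 2 (adjusted p = 0.0557), and the iMac over MCC value turned to -0.057 without MCC library 1. Spc25, a subunit of the Ndc80 complex that grips microtubules, had 10.5 and 11.9 CPM in iMac, 18.5 and 18.5 CPM in MCC and 18.9 and 28.1 CPM in MEF. It was called lower in iMac than in MEF, at -1.07 ± 0.22 (SE, adjusted p = 0.0128), and the call was lost without iMac library 1 (adjusted p = 0.0880) or iMac library 2 (0.0669).

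The other subunits of the Ndc80 complex were not called against MEF. Ndc80 itself had 11.8 and 13.9 CPM in iMac, 21.3 and 23.8 CPM in MCC and 10.1 and 20.6 CPM in MEF. Nuf2, its partner, had 18.9 and 18.3 CPM in iMac, 38.4 and 33.3 CPM in MCC and 21.4 and 39.3 CPM in MEF. Spc24, the partner of Spc25, had 6.27 and 6.54 CPM in iMac, 12.6 and 12.1 CPM in MCC and 6.56 and 13.5 CPM in MEF. Within this 1 complex, both MCC libraries were below both MEF libraries for Spc25, above both for Ndc80, and between them for Nuf2 and Spc24. Cenpe, a motor that carries chromosomes to the spindle equator, had 40.6 and 44.3 CPM in iMac, 72.3 and 75.2 CPM in MCC and 30.6 and 58.5 CPM in MEF. Cenpf, a large protein of the outer kinetochore, ran between 29.2 and 70.1 CPM, with its low and its high in MEF library 1 and MEF library 2.

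The chromosomal passenger complex, which corrects wrong attachments and later works at the midzone, had 3 of 4 members called higher in MCC than in MEF, where 23.4% of all genes were, and a median log2 fold change of 1.22. Incenp, its scaffold, had 104 and 116 CPM in iMac, 153 and 157 CPM in MCC and 41.3 and 70.2 CPM in MEF. Aurkb, its kinase Aurora B, had 39.03 and 39.9 CPM in iMac, 59.9 and 64.95 CPM in MCC and 16.4 and 30.8 CPM in MEF. Birc5, the subunit survivin, had 29.1 and 32.2 CPM in iMac, 58.02 and 61.3 CPM in MCC and 22.99 and 37.6 CPM in MEF. For all 3 genes both MCC libraries were above both MEF libraries, and for Incenp and Aurkb both iMac libraries were too. The log2 fold change in MCC over MEF was 1.48 ± 0.26 (SE, adjusted p = 0.00901) for Incenp, 1.40 ± 0.30 (SE, adjusted p = 0.0159) for Aurkb and 0.98 ± 0.25 (SE, adjusted p = 0.0246) for Birc5. The calls of Incenp and Aurkb passed under all 14 alternatives, and that of Birc5 was lost without iMac library 1 (adjusted p = 0.0562) or iMac library 2 (0.0564).

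Of the complex only Incenp was called in iMac over MEF, at 0.98 ± 0.26 (SE, adjusted p = 0.0243). It was lost without iMac library 1 (adjusted p = 0.0807) or iMac library 2 (0.109) and with library totals (0.0630). Cdca8, the subunit borealin, ran between 38.4 and 41.2 CPM in iMac, between 59.5 and 67.3 CPM in MCC, and between 19.0 and 43.0 CPM in MEF. In iMac over MCC the 2-group fit gave -0.51 ± 0.08 (SE, adjusted p = 0.0272) for Incenp, -0.68 ± 0.08 (SE, adjusted p = 0.0176) for Aurkb and -0.97 ± 0.09 (SE, adjusted p = 0.0126) for Birc5.

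Of 8 motors, Kif15 alone was called against MEF, higher in MCC. Kif11, the Eg5 kinesin that pushes the spindle poles apart, had 44.7 and 44.3 CPM in iMac, 68.4 and 70.9 CPM in MCC and 25.3 and 54.5 CPM in MEF. Kif15, which backs up Eg5 in keeping the poles apart, had 29.03 and 31.6 CPM in iMac, 50.3 and 51.4 CPM in MCC and 12.96 and 27.3 CPM in MEF. For both genes the iMac and MCC pairs did not overlap, and for Kif15 all 4 of these libraries were above both MEF libraries. Its log2 fold change in MCC over MEF was 1.33 ± 0.35 (SE, adjusted p = 0.0282), which was lost without MCC library 1 (adjusted p = 0.0534), MCC library 2 (0.0502), iMac library 1 (0.0621) or iMac library 2 (0.0622), and in the fit on MCC and MEF only (0.0558). Kif4, a motor of chromosome arms and the midzone, had 14.9 and 17.8 CPM in iMac, 30.5 and 27.6 CPM in MCC and 20.6 and 37.5 CPM in MEF, so that both iMac libraries were below both MEF libraries. Kif14, a motor of the midbody, had 10.4 and 12.3 CPM in iMac, 20.7 and 20.4 CPM in MCC and 9.32 and 14.7 CPM in MEF. Kif22, which pushes chromosome arms toward the equator, had 24.6 and 29.7 CPM in iMac, 42.8 and 50.3 CPM in MCC and 22.3 and 38.02 CPM in MEF. Kif4 and Kif22 each have a pseudogene by name in the annotation, and 15.1% of the exonic bases of Kif4 overlap Pdzd11, so their counts are uncertain.

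The remaining motors were not called against MEF. Kif20b, a kinesin needed late in cytokinesis, had 33.5 and 33.8 CPM in iMac, 41.8 and 48.2 CPM in MCC and 15.5 and 31.2 CPM in MEF, and with -0.43 ± 0.10 (SE, adjusted p = 0.0634) it missed the threshold in the 2-group fit of iMac over MCC. Kif2c, which takes apart microtubules at the centromere, ran between 26.9 and 60.1 CPM, and Kif18a between 7.85 and 20.6 CPM. The 2-group value for Kif11 was -0.66 ± 0.07 (SE, adjusted p = 0.0153).

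Spindle assembly factors were about as high in MEF library 2 as in MCC. Tpx2, which activates Aurora A on spindle microtubules, had 60.6 and 62.5 CPM in iMac, 117 and 116 CPM in MCC and 73.3 and 123 CPM in MEF. Hmmr, a spindle protein also known as a hyaluronan receptor, had 31.2 and 38.2 CPM in iMac, 66.8 and 61.9 CPM in MCC and 28.2 and 59.6 CPM in MEF. Both iMac libraries were below both MEF libraries for Tpx2 and between them for Hmmr. In iMac over MCC the 2-group fit gave -0.93 ± 0.07 (SE, adjusted p = 0.0118) for Tpx2.

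Cytokinesis genes were the group lowest in iMac relative to MEF, with a median log2 fold change of -0.77 and 2 of 6 members called lower, a share close to the 32.4% of all genes. Anln encodes anillin, the scaffold that ties actin, myosin and septins into the contractile ring, and it had 29.0 and 31.99 CPM in iMac, 69.7 and 53.3 CPM in MCC and 96.2 and 125 CPM in MEF. MEF held the 2 highest libraries, MCC the next and iMac the lowest, with no overlap between any groups. Its log2 fold change was -1.86 ± 0.20 (SE, adjusted p = 0.00194) in iMac over MEF, called under all 14 alternatives, and -0.84 ± 0.19 (SE, adjusted p = 0.0182) in MCC over MEF. The MCC call was lost without MEF library 2 (adjusted p = 0.117) or MCC library 2 (0.0933) and in the fit on MCC and MEF only (0.0629). The summed fibroblast markers were likewise highest in MEF, and were 973 CPM in MCC library 1 and 81.5 CPM in MCC library 2, where Anln had 69.7 and 53.3 CPM. Their part in the Anln result was not tested.

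Prc1, which bundles microtubules of the midzone, had 25.9 and 31.5 CPM in iMac, 58.9 and 51.5 CPM in MCC and 44.1 and 81.8 CPM in MEF. It was called lower in iMac than in MEF, at -1.13 ± 0.31 (SE, adjusted p = 0.0289), and lost without MEF library 2 (adjusted p = 0.0603), iMac library 1 (0.149) or iMac library 2 (0.0966), and 11.1% of its exonic bases overlap Rccd1. Kif23, the motor of the centralspindlin complex, had 40.6 and 45.5 CPM in iMac, 70.5 and 72.2 CPM in MCC and 31.3 and 58.2 CPM in MEF. Racgap1, the other subunit of centralspindlin, had 51.3 and 57.9 CPM in iMac, 97.9 and 97.5 CPM in MCC and 56.7 and 103 CPM in MEF. The MCC pair of both genes was close to MEF library 2 or above it. Ect2, the exchange factor that switches on RhoA at the equator, ran between 19.4 and 57.3 CPM, and Kif20a, which brings the passenger complex to the midzone, between 42.7 and 86.8 CPM, with 29.3% of its exonic bases overlapping Cdc23. The 2-group fit of iMac over MCC gave -1.03 ± 0.16 (SE, adjusted p = 0.0280) for Anln and -0.96 ± 0.13 (SE, adjusted p = 0.0240) for Prc1.

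The pair of transcription factors that act on these promoters differed. Mybl2, which encodes B-Myb, had 32.8 and 33.4 CPM in iMac, 53.1 and 50.8 CPM in MCC and 9.35 and 16.6 CPM in MEF. All 4 iMac and MCC libraries were above both MEF libraries, and the log2 fold change was 1.35 ± 0.28 (SE, adjusted p = 0.0121) in iMac over MEF and 2.001 ± 0.28 (SE, adjusted p = 0.00507) in MCC over MEF. The MCC call passed under all 14 alternatives, and the iMac call was lost without iMac library 1 (adjusted p = 0.0604) or iMac library 2 (0.0631). Foxm1 had 35.6 and 37.4 CPM in iMac, 57.3 and 58.3 CPM in MCC and 39.2 and 60.8 CPM in MEF, with iMac below both MEF libraries and MCC between them. Both factors were lower in iMac than in MCC in the 2-group fit, at -0.67 ± 0.08 (SE, adjusted p = 0.0176) for Mybl2 and -0.68 ± 0.08 (SE, adjusted p = 0.0162) for Foxm1.

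Levels of different genes can be set side by side only per length. The length used merges all annotated exons of a gene, such as 8.39 kb for Mad2l1, 5.86 kb for Cenpa and 1.87 kb for Cdc20. It can exceed the length of the RNA expressed, so the order below depends on the annotation. As CPM per kilobase of merged exons, the highest member in each group was Cdc20, at 32.0 in iMac, 56.2 in MCC and 40.3 in MEF. Incenp (25.4) and Mki67 (25.3) came next in iMac, Mki67 (42.9) and Incenp (35.9) in MCC, and Plk1 (21.4) and Top2a (21.1) in MEF. The lowest were Kif18a in iMac (0.895) and MCC (1.43) and Kif14 in MEF (1.16). Incenp thus stood among the top 3 in iMac and MCC, and at 12.9 in MEF.

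Other genes of cell division, outside the 48, were read from lists, and their counts of calls are to be read beside the shares of all genes. Those shares were 25.1% higher and 32.4% lower in iMac over MEF, 23.4% higher and 29.6% lower in MCC over MEF, and 4.36% higher and 4.24% lower in the 2-group fit of iMac over MCC. DNA replication genes (23) summed to 1338 and 1396 CPM in iMac, 2095 and 2065 CPM in MCC, and 839 and 1364 CPM in MEF. All 23 were lower in both iMac than in both MCC libraries, where 27.9% of all genes were, with a median log2 fold change of -0.63, and 18 were called lower in the 2-group fit (4.24% of all genes). In iMac over MEF 6 were called higher (25.1% of all genes) and 3 lower (32.4%), and in MCC over MEF 12 higher (23.4%) and 0 lower (29.6%). Cdt1, which loads the replicative helicase, stood at 1.52 ± 0.31 (SE, adjusted p = 0.0113) in iMac over MEF on the log2 scale, and Rrm2, a subunit of ribonucleotide reductase, at -1.25 ± 0.23 (SE, adjusted p = 0.00894). Also called lower were the G1/S cyclin genes Ccne1 at -1.17 ± 0.20 (SE, adjusted p = 0.00709) and Ccne2 at -0.94 ± 0.24 (SE, adjusted p = 0.0231). The ratio of the summed mitosis genes to the summed replication genes was 1.45 and 1.55 in iMac, 1.67 and 1.68 in MCC, and 1.87 and 2.08 in MEF, with no overlap between groups.

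The list of anaphase-promoting complex subunits (14 genes, with the E2 enzyme Ube2s counted among them) had a median log2 fold change of iMac over MCC of -0.03, beside the values of the activator Cdc20 and the enzyme Ube2c given above, and the 2-group fit called 1 lower and 1 higher. In iMac over MEF, 6 were called lower (32.4% of all genes) and 1 higher (25.1%). Ube2s, which lengthens ubiquitin chains, was at -1.02 ± 0.11 (SE, adjusted p = 0.00213), the subunit Cdc16 at -0.92 ± 0.10 (SE, adjusted p = 0.00201) and the small subunit Cdc26, the 1 called higher, at 0.46 ± 0.11 (SE, adjusted p = 0.0203). The MuvB and pocket protein list (17 genes) had a median of -0.10 in iMac over MCC, with 2 called lower and 1 higher in the 2-group fit. The iMac over MEF counts, 3 called higher and 5 lower, stood near or under the shares of all genes (25.1% and 32.4%). Among the 5 were the repressor E2f7 at -2.19 ± 0.32 (SE, adjusted p = 0.00455) and its relative E2f8 at -1.30 ± 0.37 (SE, adjusted p = 0.0312). The 3 called higher were the pocket protein gene Rbl2 at 1.01 ± 0.16 (SE, adjusted p = 0.00548), E2f4 at 0.60 ± 0.10 (SE, adjusted p = 0.00589) and the MuvB subunit gene Lin37 at 0.55 ± 0.18 (SE, adjusted p = 0.0486).

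Spindle and midbody genes outside the 48 (23 genes) had a median of -0.83 in iMac over MCC, and 16 were called lower in the 2-group fit (4.24% of all genes). In iMac over MEF 6 were called lower and 1 higher, both under the shares of all genes (32.4% and 25.1%). The lowest were Gtse1, a microtubule-tip protein, at -2.16 ± 0.15 (SE, adjusted p = 0.000677) and Ckap2, a spindle protein, at -1.93 ± 0.23 (SE, adjusted p = 0.00276). The 1 called higher was Numa1, which anchors the spindle to the cell cortex, at 0.94 ± 0.10 (SE, adjusted p = 0.00187). Against the same fibroblasts MCC had 6 called higher (23.4% of all genes) and 2 lower (29.6%). The list of Cdk1 control genes (8) had a median of -0.67 in iMac over MCC, with 4 called lower in the 2-group fit. Against MEF, 4 of them were called lower in iMac (32.4% of all genes). Among these were Mastl, a kinase that protects the phosphates Cdk1 places on its substrates, at -1.02 ± 0.23 (SE, adjusted p = 0.0167), and Wee1, the kinase that holds Cdk1 inactive, at -0.90 ± 0.20 (SE, adjusted p = 0.0156). In MCC over MEF 3 of the list were called higher (23.4% of all genes).

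Both lists of chromosome structure genes had medians below 0 in iMac over MCC. Condensin subunits (8), which compact mitotic chromosomes, had a median of -0.63 with 5 called lower in the 2-group fit, and genes of cohesin release and separation (7) had -0.74 with 6 called lower, where 4.24% of all genes were. The condensin gene Ncaph2 was called higher in iMac over MEF, at 0.49 ± 0.09 (SE, adjusted p = 0.00816), as were 2 cohesin genes, Cdca5 (sororin) at 1.03 ± 0.26 (SE, adjusted p = 0.0229) and the cohesin remover Wapl at 0.81 ± 0.09 (SE, adjusted p = 0.00239). In MCC over MEF 2 condensin and 3 cohesin genes were called higher, where 23.4% of all genes were, and none lower.

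The inner centromere list (16) had a median of -0.69 in iMac over MCC, with 4 called lower in the 2-group fit, and the outer kinetochore list (12) had -0.54, with 2 called lower, where 4.24% of all genes were. In iMac over MEF the counts of both lists, in both directions, stood under the shares of all genes (25.1% higher and 32.4% lower). The inner list gave 1 called higher, Cenpo at 1.14 ± 0.15 (SE, adjusted p = 0.00344), and 3 lower, of which Cenpm was lowest at -1.39 ± 0.37 (SE, adjusted p = 0.0252). The outer list gave 2 called higher, Zw10 at 0.72 ± 0.14 (SE, adjusted p = 0.0112) and Spdl1 at 0.58 ± 0.17 (SE, adjusted p = 0.0369), which recruit dynein, and 2 lower, Ska2 at -1.71 ± 0.21 (SE, adjusted p = 0.00296) and Zwint at -1.03 ± 0.13 (SE, adjusted p = 0.00302). In MCC over MEF 5 of the inner list were called higher (23.4% of all genes) and 1 lower (29.6%), and 4 of the outer list higher and 2 lower.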

How the data were processed

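Messenger RNA libraries were made from total RNA and sequenced, 2 each of iMac, MCC and MEF. The deposited table holds whole-number read counts per gene, which the authors made with STAR on mm10 and featureCounts, per the submitters' processing notes. The sources used here state neither tool versions nor annotation, strand setting or treatment of multi-mapping reads. No batch is named in the labels.

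Groups came from the sample labels. Genes were filtered with filterByExpr in edgeR 4.0.16 (R 4.3.3), leaving 18613 of 30445. They were scaled by TMM and fitted over all 6 libraries by group alone, which left 3 residual degrees of freedom. The quasi-likelihood test was adjusted by Benjamini-Hochberg over all tested genes, with a threshold of 0.05. Fold changes used a prior count of 0.125, and their SE came from the F statistic. Alternatives were median-ratio size factors, library totals, DESeq2 1.42.0, limma-voom (limma 3.58.1), no filter, a filter of 5 CPM in 2 libraries, only the 2 groups compared, a replicate block and each library left out. The fit was tested on counts simulated from these libraries, with 100 genes changed 2-fold and 100 changed 4-fold in each comparison. It called 1% of the 2-fold changes in iMac over MCC, 1% in MCC over MEF and 2% in iMac over MEF. Of the 4-fold changes it called 60%, 52% and 71%, in that order. No other gene was changed in the simulation, whereas 23.4% of all genes were called higher and 29.6% lower in the real MCC over MEF fit. The adjusted threshold was thus harder to pass in the simulation, and its shares do not carry over to the MEF comparisons. In iMac over MEF, Incenp was called at a log2 fold change of 0.98 and Cdc25c was not called at -1.07. A member that was not called may still differ by about 2-fold. CPM per kilobase, exonic overlaps and pseudogenes used GENCODE M21 (GRCm38), in which 29521 symbols matched 1 gene. Promoters came from RefSeq (GRCm38.p6), searched on both strands.

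Named genes were the central members of each role, the members of each role with the largest and smallest change in iMac over MEF, and those called against their role. For other lists they were the pair of called genes with the largest change in iMac over MEF and any called the other way. The members and lists were chosen with earlier results of these data known.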

Additional observations from a re-analysis of the deposited data

How the results depend on the processing

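Counts of called members in MCC over MEF were 9 higher (23.4% of all genes) and 1 lower (29.6%). In iMac over MEF they were 4 higher (25.1%) and 3 lower (32.4%). In MCC over MEF, 15 were called higher with DESeq2, where 4570 of 18613 genes were. Limma-voom gave 15 and the replicate block 15. No share of all genes by direction is given here for these fits, so neither count can be read as a shift of the members. On MCC and MEF alone 0 were called lower, where 3930 of 18247 genes were. In iMac over MEF, 2 were called higher with library totals (21.1% of all genes). In the same comparison 7 were called lower with median-ratio size factors (33.6%) and 11 with DESeq2, where 6488 of 18613 genes were. In iMac over MCC, where 0 were called, DESeq2 gave 21 lower (8.25% of all genes) and the fit on those 2 groups 42 (4.24%). With 1 library left out at a time, MCC over MEF gave 6 to 41 higher and 0 to 2 lower, iMac over MEF gave 0 to 16 higher and 1 to 30 lower, and iMac over MCC gave 0 to 1 lower. The cause of these shifts was not tested. For MCC over MEF and iMac over MEF, shares of all genes in the fits without a MEF library stand beside their counts above. The log2 fold change of Cenpa in iMac over MCC was -0.057 without MCC library 1 and 0.28 without iMac library 1, the ends of its range with a library left out. The median of the members ran from 0.18 to 1.16 in MCC over MEF, from -0.60 to 0.22 in iMac over MEF and from -0.97 to -0.71 in iMac over MCC over all alternatives. Library totals moved the median of all genes in iMac over MCC to -0.16 and that of the members to -0.96. The count of members more than 1.5-fold higher in MEF library 2 than in MEF library 1 was 43 to 47. Of the values of single named genes under the alternatives, 124 kept their direction and side of the threshold in MCC over MEF and 16 missed it, 84 kept and 14 missed it in iMac over MEF, and in iMac over MCC 301 kept, 34 passed it and 1 changed sign.

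Whether replicate numbers pair the samples is not stated in the labels. The correlation of deviations from group means over 18613 genes was 0.131 for MCC with MEF, -0.00688 for iMac with MEF and 0.00226 for iMac with MCC. Such correlations cannot exclude pairing. Among the members, library 2 was above library 1 for 48 of 48 in MEF, 45 in iMac and 26 in MCC. With the replicate block, iMac over MEF gave 4 higher and 4 lower and iMac over MCC gave 0, while MCC over MEF gave the higher count stated above. No share of all genes is given for the block, so its counts cannot be set against all genes. With 2 libraries per group, single libraries weigh heavily, and depth is not the limit, since the lowest member count was 136.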
